A study of Mus musculus with 2 samples.

Results

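The genes described here make retinoic acid, break it down, bind it in the cell or act as its receptors. Their probes were chosen by gene name from a list of 10 mouse genes, out of 22145 genes with a symbol on the array. The receptors were Rara, Rarb, Rarg, Rxra and Rxrg, the enzymes Rdh10, Aldh1a2, Dhrs3 and Cyp26b1, and the binding protein Crabp1. The rule itself uses names and no measured value, although the list was drawn up with earlier results of these data known. The 10 genes had 15 probes of 60 bases, each spotted once per array, and 12 of these probes were measured on both arrays. They covered 9 of the 10 genes, the exception being Aldh1a2.

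The samples were 2 primary cultures of hippocampal cells from ICR mouse embryos at embryonic day 16.5, and RNA was taken at 12 days in vitro. Both grew with 5.5% serum and 5 µM Ara-C, which limits dividing cells. The control culture had no drug named, and the TTX culture received tetrodotoxin for 2 days, which silences action potentials by blocking sodium channels. The TTX dose was 2 µM in the design text but 2 mM in the sample's source name, and this could not be settled. No genetic change was named for either culture, and whether embryos were pooled was not given.

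There was 1 array per group. No difference below has a replicate check, no p-value was computed, and culture, RNA preparation, array and treatment cannot be told apart. On the control array 54.2% of spots were well above background, and on the TTX array 52.2%. All levels are quantile-normalized fluorescence signals on a linear scale, and all differences are log2 of the TTX signal over the control signal. The error given with a difference is the scanner software's own error for the spot. A second guide to the error came from the 261 probes that had 10 spots per array, whose difference had a pooled SD of 0.15 between spots, from 0.31 in the dimmest to 0.06 in the brightest of 5 groups of probes by signal. Both errors cover measurement within an array and not the spread between cultures.

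Retinoic acid is made from retinol in 2 steps. Retinol dehydrogenases such as Rdh10 oxidize retinol to retinaldehyde, and retinaldehyde dehydrogenases such as Aldh1a2 oxidize retinaldehyde to the acid. Dhrs3 runs the first step backwards, from retinaldehyde to retinol, and Cyp26 enzymes break the acid down. In the nucleus the acid binds RAR receptors, which sit on DNA as pairs with RXR receptors. In hippocampal neurons RARα is also found in dendrites, where it binds messenger RNAs and holds back their translation until retinoic acid, made when synapses are silenced, releases them. That route is known as a part of homeostatic synaptic scaling, the strengthening of synapses that follows loss of activity.

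Rara, which encodes that receptor, was lower in the TTX culture at both of its probes. The probe that stood for the gene gave a signal of 3927 in control and 708 in TTX. Its difference was -2.47 ± 0.20 (scanner error), or 5.55-fold lower. The second probe gave 449 in control and 82.1 in TTX, a difference of -2.45 ± 0.22, or 5.46-fold lower. The probes lie 847 bases apart on chromosome 11, at chr11:98836197-98836256 and chr11:98835350-98835409 (mm9, plus strand), and their differences were 0.02 apart. Among the 4124 genes with at least 2 measured probes the median gap between a gene's highest and lowest probe was 0.20. The stretches below show that the Rara readout rests on separate pieces of sequence. They are 30 bases of each 60-base probe as deposited, with AATAAA, the usual polyadenylation signal of a messenger RNA, in capitals.
Rara probe at 98836197, bases 25 to 54: tactggagaaagAATAAAgttctatttatt
Rara probe at 98835350, bases 1 to 30: cctgtacatatcctgcgtaccaatccccag
The first stretch holds AATAAA and the second does not. AATAAA was present in 5 of the 15 probes of these genes and in 10.1% of the 55681 probes on the array. Ranked by difference over the 14015 measured genes, Rara stood at place 49 from the lowest, so 0.35% of genes were at least as far below 0. Only 13 genes with 2 or more measured probes had all of them at least 4-fold lower, Rara included. The genes nearest to Rara in signal on both arrays were Cox6a2, a cytochrome c oxidase subunit (3617 in control, 640 in TTX), and Tyro3, a receptor tyrosine kinase (4754 in control, 735 in TTX), among 12935 genes compared over the 2 arrays.

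**Figure D1:**
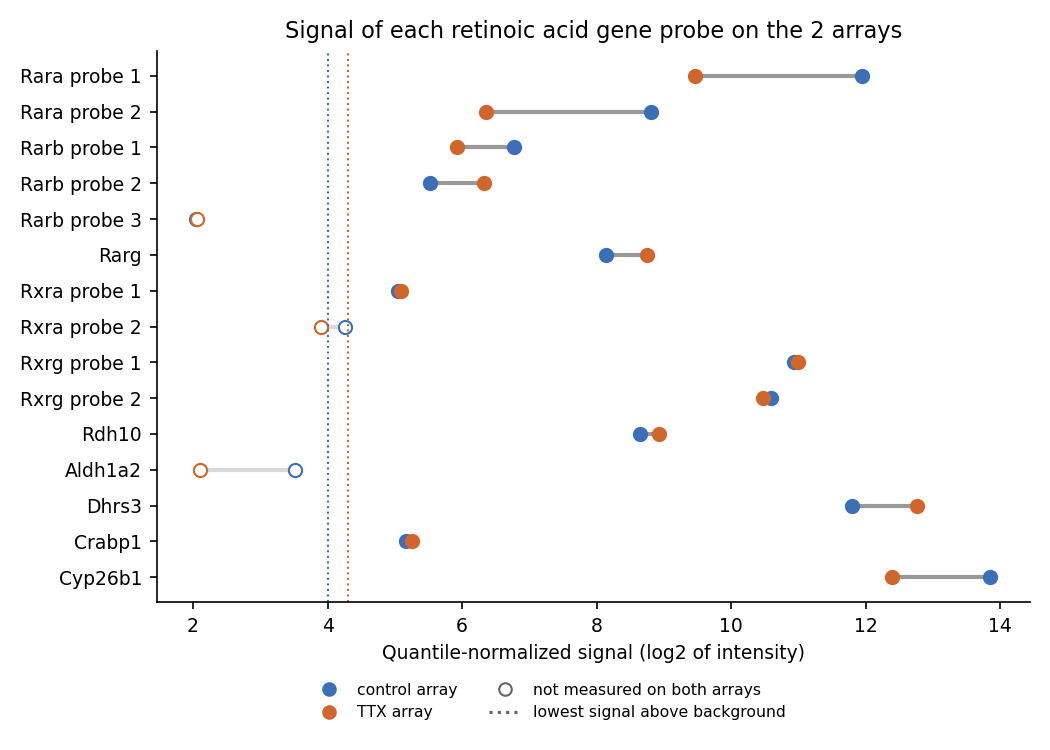
Quantile-normalized signal (log scale) of every probe of the 10 genes in the control and TTX cultures, 1 array each, with a line joining the 2 signals of a probe. Probe 1 is the brightest probe of its gene. Each probe has its own row. The TTX signal lies well to the left of control on both Rara rows and the Cyp26b1 row. On the Dhrs3 row it lies to the right (3559 in control, 6976 in TTX), and the measured Rarb probes go in opposite directions. Open points mark probes not measured on both arrays, and dotted lines mark the lowest signal well above background on each array.

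Rarb, a receptor gene that is itself a classic target of retinoic acid, gave probes that differed in opposite directions. At the probe that stood for the gene the signal was 109 in control and 60.8 in TTX, a difference of -0.84 ± 0.23. The other measured probe gave 46.2 in control and 80.2 in TTX, a difference of 0.79 ± 0.24. So the first was 1.79-fold lower in TTX and the second 1.73-fold higher. They lie 1281 bases apart, at chr14:17263367-17263426 and chr14:17264648-17264707 (mm9, minus strand). The remaining probe, at chr14:17651424-17651483, is described on the array as the RAR-beta1 isoform, and it was not well above background in either culture (4.15 in control, 4.16 in TTX). The stretches of the measured probes are given because the call depends on which of them is read, with AATAAA again in capitals.
Rarb probe at 17263367, bases 31 to 60: ttccatggagtctcctggcaaagAATAAAt
Rarb probe at 17264648, bases 1 to 30: aattctgaaggacatgaacccttgacccca
The gap between the measured probes was 1.64, and 0.752% of genes with at least 2 measured probes had a gap this large. Among the 503 such genes in the signal group of Rarb or a dimmer one it was 2.39%. Only 16 genes, 0.388%, had 1 probe at least 1.5-fold lower and another at least 1.5-fold higher. Spots of this brightness scattered by an SD of 0.18 for the first probe and 0.31 for the second. With the measured probes averaged, Rarb stood at -0.02, so the data give no single direction for this gene. After each spot was set against the median of its block of array rows, the values were -0.80 and 0.77. Transcript ends, splicing and cross-hybridization were not tested as sources of the gap.

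Rarb also has a promoter in which the letters of a retinoic acid response element can be read. It is printed because, of the promoter windows found for 9 of the 10 genes, it was the only one with a direct repeat of retinoic acid half-sites 5 bases apart. The sequence is RefSeq's for the 250 bases before the start of Rarb, chr14:16575477-16575726, minus strand, in GRCm38.p6, a different build from that of the probes. Capitals mark half-sites on either strand and the direct repeat with its spacer.
Rarb promoter: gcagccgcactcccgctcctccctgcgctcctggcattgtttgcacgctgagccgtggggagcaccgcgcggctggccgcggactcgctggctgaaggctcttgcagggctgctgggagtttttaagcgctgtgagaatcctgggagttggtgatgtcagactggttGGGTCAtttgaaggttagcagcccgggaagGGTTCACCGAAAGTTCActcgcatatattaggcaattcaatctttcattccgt
The repeat, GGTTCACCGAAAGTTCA, runs from base -53 to base -37 relative to the start. The half-sites searched on both strands were AGGTCA together with its variants AGTTCA and also GGTTCA and also GGGTCA, in windows of 250 bases before to 50 bases after each start. A direct repeat of any of them 5 bases apart was found in 0.0974% of 32851 windows. A single half-site was found in 43.7% of all windows and in 7 of the 17 windows of these genes, at Rara, Rarb, Rarg, Rxra and Rxrg. Repeats 2 bases apart (0.268% of all windows) and 1 base apart (0.222%) were found in none of the 17. A match is a match of letters and shows no binding.

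Rarg, the remaining retinoic acid receptor, gave 282 in control and 432 in TTX at its single probe (chr15:102065371-102065430, mm9, minus strand). The difference was 0.62 ± 0.21, or 1.53-fold higher in TTX. Rara and Rarg therefore differed in opposite directions between the cultures, by more than the error of either.

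The RXR receptors, the partners of the RARs on DNA, were close to level. Rxra gave 33 in control and 34.1 in TTX at the probe measured on both arrays, a difference of 0.05 ± 0.32. Its other probe was well above background in control only (19.1 in control, 14.9 in TTX), and no fold can be given because the TTX detection level was 19.6. Rxrg gave 1954 in control and 2037 in TTX, a difference of 0.06 ± 0.20, and 1546 in control and 1430 in TTX at a second probe 128 bases away, a difference of -0.11 ± 0.20. Both Rxrg differences were within the scanner error, and the sign of the first turned with the scaling (-0.12 to 0.06). Rxrb, the remaining RXR gene, gave 9246 in control and 8960 in TTX, a difference of -0.05.

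**Figure D2:**
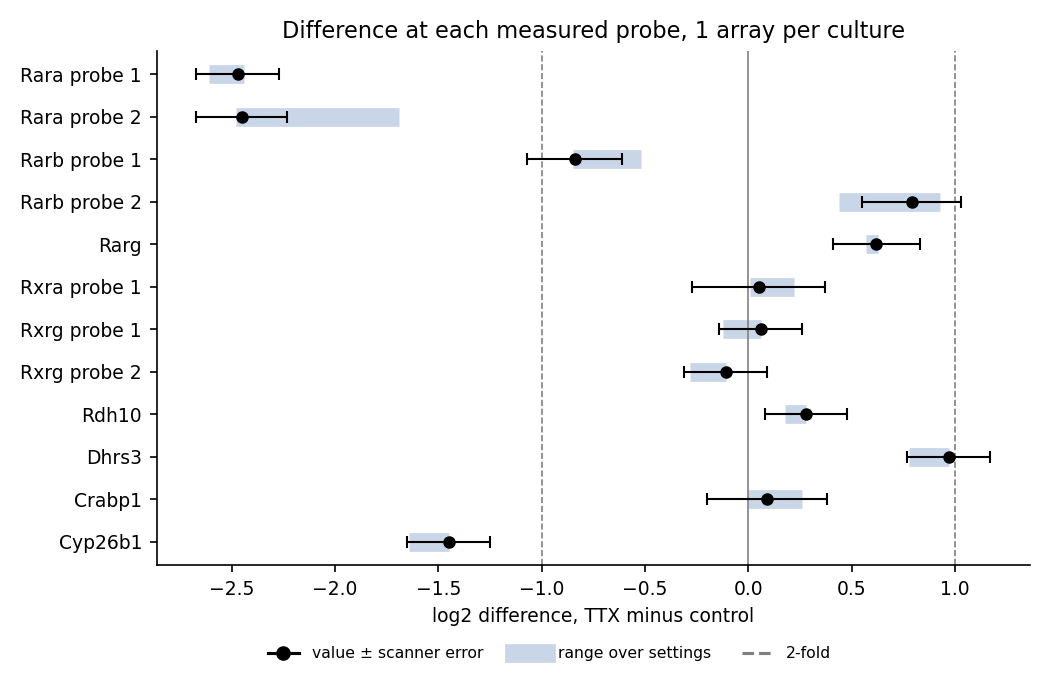
Log2 difference, TTX over control, of each measured probe of the 10 genes, with bars for the scanner software's error of a difference. Dashed lines mark 2-fold, and only the Rara probes and the Cyp26b1 probe lie beyond them, while the Rarb probes lie on either side of 0.

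On the synthesis side, Rdh10 gave 401 in control and 488 in TTX (chr1:16122062-16122121, mm9, plus strand), a difference of 0.28 ± 0.20 and 1.22-fold higher in TTX. Aldh1a2, which makes the acid itself, was not well above background in either culture (11.4 in control, 4.28 in TTX), where the dimmest probes called above background had signals of 16 in control and 19.6 in TTX. No fold can be given for it. Among the other enzymes of that step, Aldh1a1 gave 2513 in control and 3538 in TTX, a difference of 0.49, and Aldh1a3 was not measured on both arrays.

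Dhrs3, the reductase that returns retinaldehyde to retinol, was the highest of the 9 measured genes. Its signal was 3559 in control and 6976 in TTX (chr4:144517485-144517544, mm9, plus strand). The difference was 0.97 ± 0.20, or 1.96-fold higher, just short of the 2-fold threshold. It ranged from 0.78 to 0.97 over the ways of processing tried and passed 2-fold in none of them. Of all measured genes, 2.33% were at least as high, which put Dhrs3 at place 327 from the top. The Dhrs3 probe also holds AATAAA, shown in capitals.
Dhrs3 probe at 144517485, bases 29 to 58: gcagaaacgcaaAATAAAgaggtggctttc
For spots of its brightness the SD of a difference between spots was 0.06.

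Crabp1, a binding protein that carries retinoic acid in the cytosol, was dim and level, with 36.1 in control and 38.4 in TTX. Its difference of 0.09 ± 0.29 was smaller than its error. Its relative Crabp2, which delivers the acid to the nucleus, gave 386 in control and 340 in TTX (-0.19).

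Cyp26b1, the enzyme of this set that breaks retinoic acid down, was lower in the TTX culture. Its signal was 14753 in control and 5382 in TTX (chr6:84521952-84522011, mm9, minus strand). The difference was -1.45 ± 0.20, or 2.74-fold lower. A stretch of its single probe is shown because this value rests on that probe alone, and it holds no AATAAA.
Cyp26b1 probe at 84521952, bases 1 to 30: gttcgtgtgtctcgttgtggtagcattaat
Cyp26b1 stood at place 197 from the lowest, with 1.41% of genes at least as far below 0. In the brightest signal group, to which it belonged, 1.97% were at least 2-fold lower. The closest genes in signal on both arrays were Iqsec3, a synaptic exchange factor (14506 in control, 5197 in TTX), and Slc2a6, a sugar transporter (14378 in control, 5209 in TTX). Cyp26a1, the related enzyme, gave 125 in control and 77.9 in TTX, a difference of -0.68. Cyp26c1 was not measured on both arrays.

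Across the set, 2 of the 9 measured genes, Rara and Cyp26b1, were at least 2-fold lower in TTX, against 3.40% of all 14015 measured genes. None of the 9 was at least 2-fold higher, against 2.08% of all genes. At 1.5-fold, 3 were lower (Rara, Cyp26b1 and Rarb at its representative probe) and 2 higher (Dhrs3 and Rarg), against 8.66% and 7.62% of all genes. The remaining 4, Rdh10, Rxra, Rxrg and Crabp1, were within 1.5-fold. The median of the 9 differences was 0.06, next to 0.01 over all measured genes, with 3 below 0 and 6 above. With 75th percentile scaling the median of the 9 was 0.22, next to -0.03 over all measured genes. Past 1.5-fold in either direction were 5 of the 9 genes, against 16.3% of all genes.

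**Figure D3:**
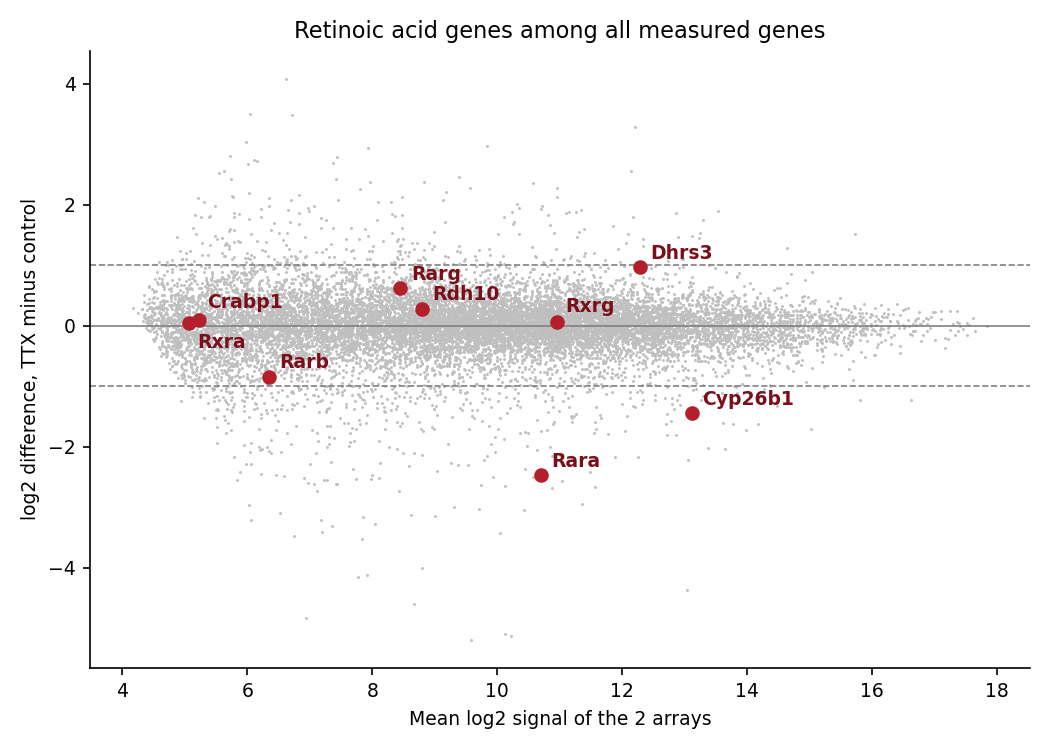
Log2 difference, TTX over control, against mean log2 signal for all 14015 measured genes, with the 9 measured retinoic acid genes marked. Rara and Cyp26b1 lie under the cloud in its brighter part, Dhrs3 lies at its upper edge, and Rxra and Crabp1 lie where the cloud is widest.

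Other genes of retinoid metabolism and binding were given from a list of 43, of which 26 were measured. Rdh11, another retinal reductase, was at least 2-fold lower (1980 in control, 837 in TTX, a difference of -1.24) and was the only such gene with quantile normalization. The count was 3 with spike-in scaling or no filter on dim probes, and 2 with loess or row centring. At least 2-fold higher were Rlbp1 (21.1 in control, 45.6 in TTX), Ttr (41.3 in control, 82.9 in TTX) and Rpe65 (18.3 in control, 36.7 in TTX). Rlbp1 and Rpe65 belong to the visual cycle, and Ttr carries thyroid hormone and the retinol binding protein complex. These 3 genes were in the dimmest signal group, where 3.92% of all genes were at least 2-fold higher. None of them passed 2-fold with normexp background correction, and a stricter filter on dim probes left them out. The median of the list was 0.08, with 11 genes below 0 and 15 above. Stra6, a retinol uptake receptor, was at -0.86 (61.7 in control, 34.1 in TTX). Stra6 was also in the dimmest signal group, its difference was as small as -0.36 over the settings, and the stricter filter left it out. The retinal-reducing aldo-keto reductases Akr1b8 and Akr1b10 were at -0.97 (323 in control, 165 in TTX) and -0.88 (1396 in control, 758 in TTX). Stra6, Akr1b8 and Akr1b10 were picked after their values were seen. Other Rdh genes of the list did not differ in that direction to such a degree. Rdh12 was at -0.09 (5567 in control, 5223 in TTX) and Rdh14 at 0.06 (1851 in control, 1933 in TTX). Rdh13 was at 0.10, and at 1.01 at its other probe.

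Among 22 other receptors that pair with RXR or share its DNA sites, 19 were measured and 3 were at least 2-fold lower. The share at least 2-fold lower over all 14015 measured genes was 3.40%. Nr4a1 was at -5.10 (6524 in control, 191 in TTX) and Nr4a2 at -3.03 (2389 in control, 293 in TTX), both of them immediate-early genes as well as RXR partners. Thrb, a thyroid hormone receptor, was at -1.09 (254 in control, 120 in TTX), and at -0.79 at its other probe. Thrb did not reach 2-fold with normexp correction or with probes averaged, which left 2 genes at least 2-fold lower. None was at least 2-fold higher, the highest being Nr2f2 at 0.40, and the median was -0.09.

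All 23 listed coregulators of the RARs were measured, and none passed 2-fold in either direction. Their median was 0.23, with 18 above 0, next to 0.01 over all measured genes. When the arrays were scaled on spike-in controls it was 0.08, next to -0.09 over all measured genes. Nrip1, a ligand-dependent corepressor, was the highest at 0.66 (933 in control, 1478 in TTX), and Ncoa7 the lowest at -0.31. Ncor1, a corepressor that holds unliganded RARs silent, was at 0.29, although its 4 probes ranged from -0.07 to 0.29.

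Of 39 genes known to be induced by retinoic acid in other settings, 22 were measured, Rarb, Cyp26b1 and Dhrs3 among them. Their median was 0.04. Cyp26b1 was the only one at least 2-fold lower. Pdk4, a mitochondrial kinase, was the only one at least 2-fold higher, at 1.06, from signals near background (16.6 in control, 34.6 in TTX). The difference of Pdk4 was as small as 0.29, and no listed gene was at least 2-fold higher with loess, with normexp or under the stricter filter on dim probes. Tshz1, a zinc finger factor, was at 0.92.

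The genes assigned to retinoic acid dependent synaptic scaling numbered 17, and all were measured. Rara was the only one at least 2-fold lower, none was at least 2-fold higher, and the median was 0.04. Fmr1, whose protein FMRP is required for this form of scaling, gave 688 in control and 756 in TTX (0.14). Gria1, the glutamate receptor subunit whose translation RARα holds back, gave 4525 in control and 4800 in TTX (0.09), and Gria2 gave 565 in control and 594 in TTX (0.07). The sign of both Gria differences turned with the scaling, to as low as -0.09 for Gria1 and -0.01 for Gria2. Grip1, a scaffold of those receptors, was the highest at 0.48 and Ppp3r1, a calcineurin subunit, the lowest after Rara at -0.45. Arrays measure messenger RNA and carry no value for its translation.

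**Figure D4:**
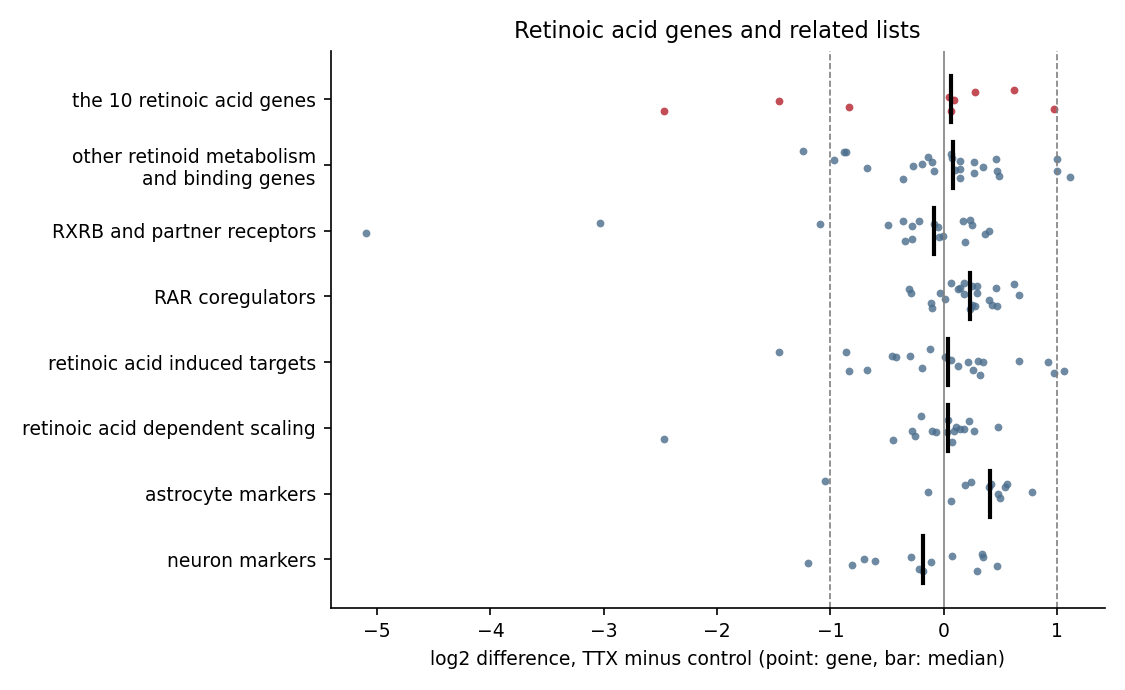
Log2 difference, TTX over control, of each measured gene in the retinoic acid lists and in the astrocyte and neuron marker lists. Each gene is 1 point, and the median of each list is a bar. The retinoic acid lists have medians between -0.09 and 0.23, the astrocyte markers 0.41 and the neuron markers -0.18.

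Lists of activity-regulated genes and cell markers describe the cultures. They were written with earlier results of these data known, so no support is drawn from them. Of 14 activity-regulated genes, 13 were measured and 12 were at least 2-fold lower in TTX, against 3.40% of all measured genes. Their median was -3.12, and the 13 ran from Arc at -5.19 to Junb at -0.77. All 13 neuron markers were measured, with a median of -0.18, 8 below 0 and 5 above. Only Nefm was at least 2-fold lower (-1.20), followed by Rbfox3 at -0.81, Gad1 at -0.70 and Nefl at -0.61. The highest was Tubb3 at 0.47. The summed signal of the 13 was 258787 in control and 245273 in TTX, of which Stmn2 alone gave 48949 and 59657. Some markers of other cells were measured too. Astrocyte markers (12 of 14 measured) had a median of 0.41, ranged from Slc1a2 at -1.05 to Gfap at 0.78, and summed to 55293 in control and 66808 in TTX, of which Aldoc alone gave 38706 and 44026, while the defining markers Gja1 and Gjb6 were not measured. Microglia markers (9 of 12) had a median of 0.36, between Csf1r at -0.36 and Laptm5 at 0.89, and summed to 19405 and 21600. Itgam alone gave 18151 and 20323 of that sum, and Cx3cr1, P2ry12 and Ptprc were not measured. Meningeal and fibroblast markers (9 of 14), from cells known to make retinoic acid, had a median of 0.16, between Foxc1 at -0.62 and Fbln1 at 2.38, and summed to 10509 and 13041. Igfbp2 alone gave 9342 and 11251 of that sum, and Lum, Foxc2, Foxd1, Slc6a13 and Slc22a6 were not measured. Oligodendrocyte markers (6 of 10) had a median of 0.20, between Mog at -0.18 and Olig1 at 0.78, and Olig2, Sox10, Pdgfra and Mag were not measured. Choroid plexus markers (5 of 10) had a median of 0.34 and ran from Kcnj13 at -0.57 to Ttr. Endothelial markers (4 of 8) had a median of -0.16, between Kdr at -0.24 and Esam at 0.07. Cajal-Retzius markers (8 of 8) had a median of -0.14, with 5 below 0 and 3 above. They ran from Reln at -0.38 to Calb2 at 2.27, and only Calb2 was at least 2-fold higher. Proliferation markers (7 of 12) had a median of 0.07, with 2 below 0 and 5 above. They ran from Mcm5 at -0.35 to Mki67 at 3.48, and only Mki67 was at least 2-fold higher. Top2a, Ccnb1, Cdk1, Bub1 and Aurkb were not measured. In such mixed cultures fewer cells of a type and less RNA per cell cannot be told apart, and the part of cell makeup in the differences of Rara, Cyp26b1 and Dhrs3 was not tested.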

How the data were processed

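Total RNA was labelled and hybridized to 1-colour Agilent 8x60K mouse arrays, 1 per culture. The deposited scanner files hold linear, background-subtracted spot intensity, per the file headers. Scanner software is given as Feature Extraction 10.7.1.1 per the file headers but 9.5.1.1 per the submitters' processing notes. Probe positions are on mm9. The value table the authors deposited also holds intensity and served as an alternative.

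Control spots were dropped, and no saturation occurred. Quantile normalization was applied to the processed signals, as the series' design text names, followed by log2. Outlier spots, which numbered 131 and 170 on the control and TTX arrays, were then dropped. A mean per probe was taken over the rest. A probe counted as measured when a share of 0.5 or more of its spots passed the scanner's background test on each array. The brightest measured probe stood for its gene. Of 55681 probes, 30847 were given a gene symbol from RefSeq tables. Differences were read with a 2-fold size rule and no test. Exon and UTR annotation of the probes was not used here.

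The members and lists were chosen with earlier results of these data known. All 10 genes were named, and from each other list those past 2-fold (at most 5) with the highest and lowest, plus Fmr1, Gria1, Gria2, Ncor1, Aldh1a1, Aldh1a3, Cyp26a1, Crabp2 and Rxrb. Some genes this rule names are not reported here. For members past 2-fold, the 2 nearest genes by Euclidean distance of log2 signals were given. Stra6, Akr1b8, Akr1b10, Rdh12, Rdh13, Rdh14, Tshz1 and the genes with a direct repeat in their promoter were added after their values were seen. Alternatives were 75th percentile, spike-in, loess or no scaling, normexp (offset 50), the authors' values, no or a stricter filter, the mean over probes, outliers kept, row centring, and 1.5-fold and 3-fold thresholds. Scripts used Python 3.11.15, numpy 2.4.6, pandas 2.3.3, statsmodels 0.14.6, R 4.3.3 and limma 3.58.1, and were tested on simulated data.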

Additional observations from a re-analysis of the deposited data

How the results depend on the processing

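Over the 11 other ways of processing, Rara (-2.61 to -2.44) and Cyp26b1 (-1.64 to -1.45) were at least 2-fold lower in all of them, and no measured retinoic acid gene was at least 2-fold higher in any of them. The second Rara probe was at -1.69 with normexp correction. Rarg stayed between 0.57 and 0.63 and Rdh10 between 0.18 and 0.28. The measured Rarb probes were on opposite sides of 0 (-0.85 to -0.52 and 0.44 to 0.93) in the 10 settings, quantile normalization included, that gave each a value. The stricter filter left them out, and the mean over probes gave -0.02. The median of the members was 0.22 with 75th percentile scaling and 0.21 with no scaling between arrays. The median over all genes was -0.03 in each of these settings. Over all genes, normexp gave 301 at least 2-fold lower and 147 higher, and no filter on dim probes gave 1372 and 1058. A 1.5-fold threshold gave 1214 lower and 1068 higher over all genes and 2 higher members, and a 3-fold threshold gave 163, 94 and 1 lower member. With spike-in scaling the median over all genes was -0.09 in place of 0.01. The cause of these shifts was not tested, beyond what each setting does by construction. No paired analysis was possible because each group has 1 array. The limit on Aldh1a2, Rxra and Crabp1 is signal over background, and the number of arrays limits every value.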

Other observations

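Genes other than Rarb whose promoter window holds a direct repeat of the 4 half-sites 5 bases apart were looked up after the values were seen, so no support is drawn from them. They numbered 31 of 27025 genes in RefSeq's table, Rarb included, of which 11 were on the array and 6 measured. None of the 6 passed 2-fold. Cyp26a1, a retinoic acid breakdown enzyme, has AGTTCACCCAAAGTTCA on the minus strand from base -32 to base -16, and was at -0.68 (125 in control, 77.9 in TTX). Syndig1, a synapse differentiation protein gene, has GGGTCACCCCTAGTTCA from base -167 to base -151 and was at -0.65. Prokr2 was at 0.02, Blvrb at 0.16 and Cfap45 at 0.78.

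The letters of other activity-linked sites were searched in the same 17 windows of the retinoic acid genes, on both strands. The cyclic AMP response element TGACGTCA, in 1.79% of all windows, was in none of them. Its core, TGACG, which lies inside it, was in 2 windows of Rara and in 20.8% of all windows. The AP-1 site TGANTCA (7.81% of all windows) and the Egr site GCGTGGGCG (0.612%) were in none.

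Probes that the array describes with retinoic acid in the name but that lie in no list above showed small differences. Cenpx was at 0.24, Elp5 at -0.10 and the probes of Raet1e at -0.11 and -0.30.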
